A study of Rattus norvegicus with 12 samples.

Results

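The comparison described here set 3 arrays of rat skin-derived precursors treated with trimebutine maleate alone against 3 arrays treated with vehicle. It asked how large a change trimebutine could have made to each gene and each pathway without being seen, and which small shifts ran the same way in every pair of arrays. The comparison used 6 of the 12 arrays of the series directly. All 12 arrays entered the fit, and 13636 of the 18166 genes that the array names by 1 symbol passed the limit on signal and were tested. No difference between the trimebutine and vehicle arrays reached 0.5 on the log2 scale in any of the 13636 genes, and none passed an adjusted p under 0.05.

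Skin-derived precursors (SKPs) are dermal precursor cells that grow in suspension as spheres and share properties with the cells of the dermal papilla and dermal sheath of hair follicles. They were isolated from newborn pups of Sprague-Dawley rats, an outbred laboratory strain, in 3 independent isolates, and kept in medium with 40 ng/ml FGF2 and 20 ng/ml EGF. Cells from dissociated secondary spheres received vehicle or 100 nM trimebutine maleate for 24 h. In the other groups, cells received 100 nM alprostadil, which is prostaglandin E1, or trimebutine maleate together with trametinib, each at 100 nM and for the same time. The labels give neither the number nor the sex of the pups behind an isolate. No genotype, transgene or sort was named, so each value is an average over all cells of a culture.

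Trimebutine is prescribed for disorders of gut motility. It is known as a weak agonist of the mu, delta and kappa opioid receptors and as a blocker of calcium, potassium and sodium channels. Opioid receptors signal through inhibitory G proteins, which lower cyclic AMP, and through arrestins, and they can also activate the MEK and ERK kinases. Trametinib blocks MEK. The medium itself contained FGF2 and EGF, growth factors that act through this kinase cascade in all 4 groups.

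The 6 arrays had medians from 6.41 to 6.45, and their same-numbered arrays of the 2 treatments correlated at 0.990 to 0.993, beside 0.985 to 0.991 for arrays of the same group. Of 22 markers listed for dermal precursors, 21 were tested. Among them, Vim (vimentin, the mesenchymal intermediate filament), Fn1 (fibronectin), Pdgfra (a growth factor receptor of dermal fibroblasts) and Thy1 lay between 12.26 and 13.55 on every one of the 6 arrays. These 4 were not typical of the list: the median signal over the 21 markers was 8.53. Sox2, a stem cell transcription factor of SKPs and dermal papilla, was at 6.30, 6.50 and 7.48 with vehicle in replicates 1, 2 and 3. The mean over the 21 markers differed between treatments by 0.002, with a 95% interval from −0.046 to 0.051. Array values of different genes depend on their probes, so these levels are not an order of abundance.

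Differences below are on the log2 scale, trimebutine minus vehicle, from a linear model with a mean for each of the 4 groups and the replicate number as a block, fitted with limma. The block means that each isolate served as its own control. The bound of a gene is the far end of its 95% interval, in size: the largest change that the interval still holds. A log2 difference of 0.25 is a 1.19-fold change, 0.5 is 1.41-fold and 1 is 2-fold. The smallest adjusted p over all genes was 1.00, so every difference between trimebutine and vehicle named below has an adjusted p of 1.00. At an unadjusted p under 0.05 there were 252 genes, or 1.85% of those tested, of which 144 were higher (1.06%) and 108 lower (0.792%) with trimebutine.

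The bounds were narrow for most genes. The median gene had a 95% interval that reached 0.160 to either side of its difference, and 90% of genes had a half-width from 0.114 to 0.281. The median bound was 0.207, a 1.15-fold change, and 95% of the genes had a bound under 0.387, a 1.31-fold change. A change over 0.5 in either direction was excluded by a pair of one-sided moderated tests, adjusted over all genes, for 13563 genes (99.5%), a change over 0.25 for 10599 genes (77.7%) and a change over 1 for 13636 genes (100%). The 95% interval itself is a stricter measure: it lay inside 0.5 for 13477 genes and inside 0.25 for 9619. Some genes called excluded by the tests therefore have a bound past the limit, and excluded below refers to the tests. The SD of the 13636 differences was 0.0704, and the median standard error of 1 difference was 0.0722. Differences ran from −0.49 to 0.40. With intervals widened to hold for all 13636 genes at once by Bonferroni's method, the median bound was 0.686. Under these intervals 11904 genes stayed under 1 and only 1176 under 0.5.

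**Figure D1:**
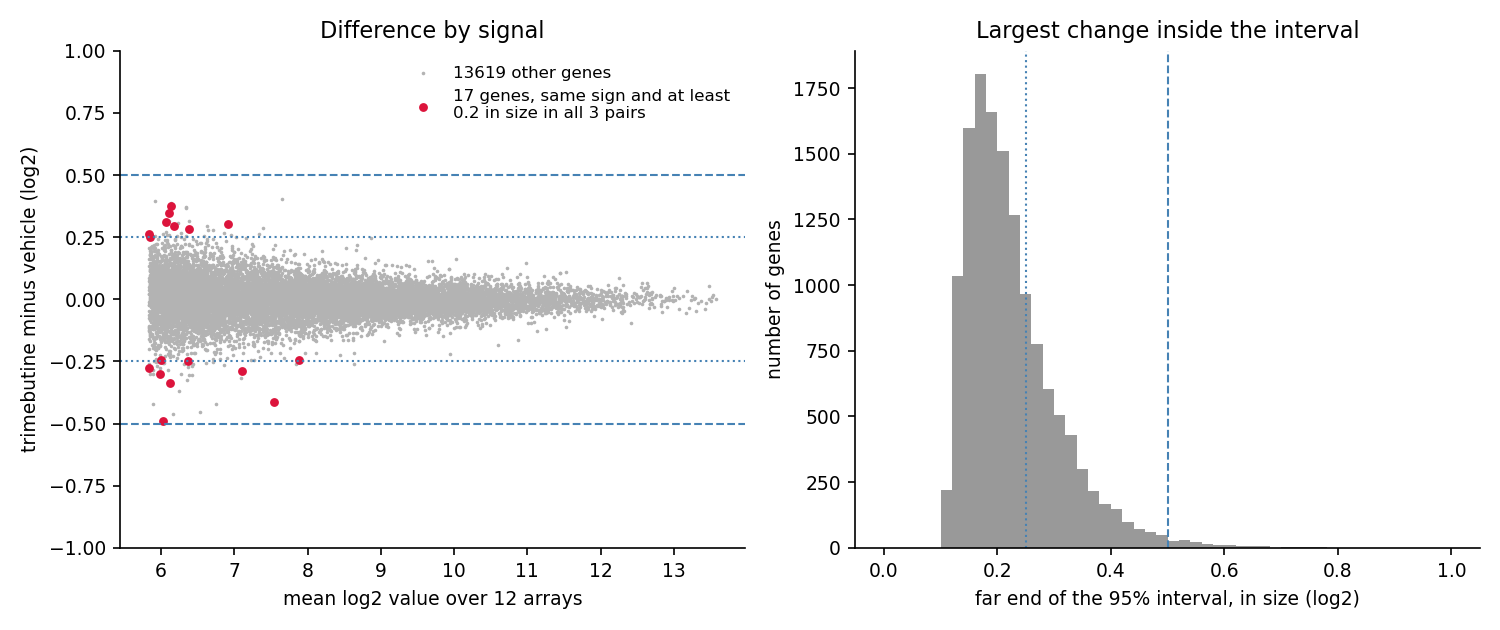
Left, the difference between trimebutine and vehicle on the log2 scale against the mean log2 value over 12 arrays, 1 point per gene, with the 17 genes that shifted alike by at least 0.2 in every pair in red. Right, the number of genes by bound, the far end of the 95% interval in size. Dashed lines stand at 0.5 and dotted lines at 0.25; no point lies beyond 0.5, and the median bound is 0.207.

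Precision followed signal. In the 3409 genes with the lowest mean values, 5.83 to 6.70, the median half-width was 0.197, and a change over 0.25 was excluded for 53.2% of the genes. In the 3409 with the highest values, from 9.19 to 13.6, these were 0.132 and 96.7%. A difference over 0.25 in size was seen in 71 genes, of which 70 lay below the median signal of 7.93. All 17 genes that shifted alike by at least 0.2 in every pair lay below it too.

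For 73 genes a change over 0.5 was not excluded. Of these, 32 had a difference over 0.25 in size and 41 had a smaller one with a wide interval, and 65 of the 73 lay below the median signal. They held 8 microRNA genes, of 150 tested, and 10 olfactory or vomeronasal receptor genes, of 161 tested. Mir423, the gene of a microRNA found in many tissues, had the largest bound, 0.951 or 1.93-fold. Its values were 6.44, 6.28 and 6.07 with vehicle and 6.27, 5.22 and 5.93 with trimebutine. Trimebutine replicate 2 stood apart from the other 5 arrays, and the pair differences were −0.18, −1.06 and −0.15. Another microRNA gene, Mir667, was among the genes that shifted alike, with 7.69, 7.41 and 6.80 with vehicle and 7.28, 7.16 and 6.60 with trimebutine. Its groups overlapped, and its difference of −0.29 had a 95% interval from −0.71 to 0.14. The array probes a microRNA gene's transcript, and which mature product was measured is not known. The mature sequences are shown to identify the products, from RefSeq on GRCr8, with the seed, bases 2 to 8 from the 5′ end, in capitals.
rno-miR-423-5p: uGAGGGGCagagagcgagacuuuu
rno-miR-667-5p: cGGUGCUGguggagcagugagcac
rno-miR-667-3p: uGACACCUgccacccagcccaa
The first lies at chr10:62412317-62412340 on the minus strand, and the products of Mir667 at chr6:134555351-134555374 and chr6:134555392-134555413 on the plus strand. No pair of the 3 shares a seed.

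The 5 widest intervals by the rule for named genes were those of Clec2d2, Naip5, Mmp13, Igf1 and Scn7a. Mmp13 encodes collagenase 3, a matrix metalloproteinase of bone and healing tissue. It measured 12.29, 12.11 and 12.28 with vehicle and 12.25, 12.03 and 12.36 with trimebutine, so the groups overlapped and the difference was −0.01. Its interval nevertheless ran from −0.61 to 0.59. The fit takes 1 spread from all 4 groups, and Mmp13 had an SD of 0.851 over the arrays with trimebutine and trametinib, beside 0.098 over vehicle. From the 6 arrays alone its bound was 0.137, in place of 0.612. Naip5, a sensor of bacterial proteins in macrophages, had the same feature, with an SD of 0.740 in the combination, 0.229 with vehicle and 0.233 with trimebutine.

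The isolates differed from each other far more than the treatments did for a group of genes of myeloid cells. Clec7a, the beta-glucan receptor of macrophages and dendritic cells, was at 5.01, 7.47 and 9.62 with vehicle and at 5.25, 8.38 and 9.69 with trimebutine. Its difference of 0.40 was the highest of all genes, and its 95% interval ran from −0.03 to 0.84. Without the replicate block the bound of Clec7a was 3.73 in place of 0.840. Ptprc, the leukocyte antigen CD45, was at 6.25, 7.06 and 8.44 with vehicle and at 6.39, 7.34 and 8.62 with trimebutine, and its bound was 0.427 with the block and 1.84 without. Of 17 markers listed for macrophages and leukocytes, 15 were tested, and their mean level was 7.77, 8.24 and 8.93 in vehicle replicates 1, 2 and 3 and 7.68, 8.35 and 8.95 with trimebutine. The mean over these 15 markers differed by 0.017 between treatments, with an interval from −0.270 to 0.304, the widest bound of any list. In such cultures, fewer cells of a type and less RNA per cell cannot be told apart. Of 185 genes with an SD over 0.5 among the vehicle arrays, 170 still had a change over 0.5 excluded, beside 99.5% of all genes.

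Pairs of arrays with the same replicate number gave 3 separate estimates of the trimebutine effect, 1 for each isolate. Across the 13636 genes, the differences in one isolate showed next to no relation to those in another: the correlations were −0.00 between replicates 1 and 2, −0.01 between 1 and 3 and 0.04 between 2 and 3. Genes are not independent replicates, and all 3 estimates share the normalization of the arrays, so these are descriptions. For alprostadil, which was compared with the same vehicle arrays, the same correlations were 0.43, 0.23 and 0.48. The SDs of the pair differences were 0.128, 0.121 and 0.113 for trimebutine and 0.216, 0.177 and 0.167 for alprostadil. Differences had the same sign in all 3 pairs for 3420 genes (25.1%) with trimebutine, of which 1659 were higher (12.2%) and 1761 lower (12.9%). Signs drawn at random agree in 3 pairs with a probability of 0.25, so the trimebutine share was at that level. For alprostadil the share was 36.2%.

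**Figure D2:**
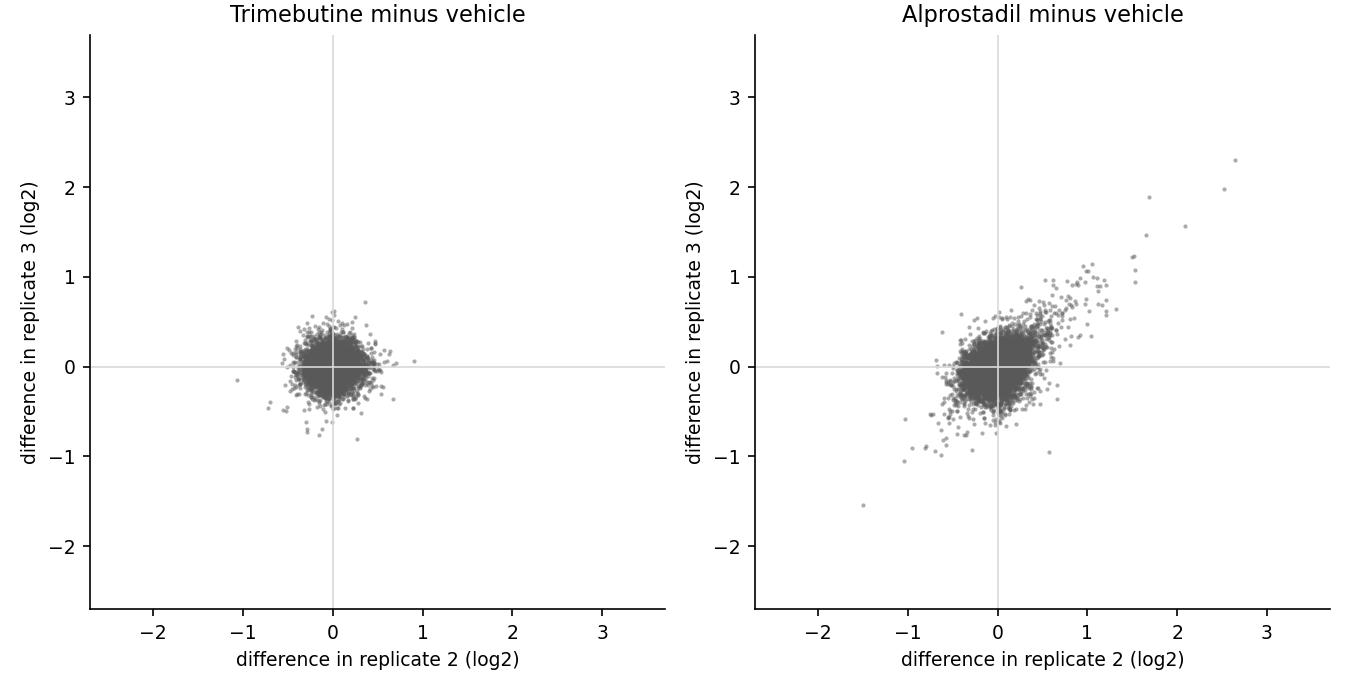
Difference from vehicle in replicate 3 against that in replicate 2, log2 scale, 1 point per gene for 13636 genes, with trimebutine on the left and alprostadil on the right at the same axes. The trimebutine points form a round cloud (correlation 0.04), while the alprostadil points stretch along the rising diagonal (correlation 0.48).

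The requirement of at least 0.2 in size in each pair left 17 genes (0.125%), 8 higher (0.0587%) and 9 lower (0.066%). At 0.1 there were 128 higher (0.939%) and 111 lower (0.814%). The corresponding count at 0.2 was 416 for alprostadil and 3565 for trimebutine with trametinib. The groups did not overlap for 12 of the 17 genes. Over all genes this held for 577 (4.23%), of which 296 were higher (2.17%) and 281 lower (2.06%). The unadjusted limma p was under 0.05 for 13 of the 17, beside 1.85% of all genes. The 17 were chosen by differences on these same arrays. Both counts therefore follow largely from the choice and are no evidence for these genes. An exact sign-flip test of 3 pairs cannot give a two-sided p below 0.25, so the pairs alone cannot carry a test of a single gene. Just inside the limit were Doc2g and Mir667, with smallest pair differences of 0.205 and 0.206. Just outside it were Potem at 0.196 and the gene C1h2orf78l1 at 0.196.

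Among the 8 genes higher in every pair was Kera, which encodes keratocan, a small leucine-rich proteoglycan best known from the cornea. Kera had values of 5.70, 5.49 and 5.59 with vehicle and 5.93, 5.77 and 5.87 with trimebutine. All 3 trimebutine arrays lay above all 3 vehicle arrays, and the pair differences were 0.23, 0.28 and 0.27. The difference was 0.26 with a standard error of 0.054 and a 95% interval from 0.14 to 0.38, and its unadjusted limma p of 0.000597 was the smallest of all genes. Its signal lay at the bottom of the tested range. The vehicle mean of 5.59 was under the limit on signal of 5.83. Kera passed that limit only through the groups where it was higher, with means of 5.86 with trimebutine, 6.04 with alprostadil and 5.85 with the combination. Its choice for testing was therefore not independent of its rise. Kera was also higher with alprostadil, by 0.44 (adjusted p = 0.00198), and with the combination, by 0.26 (adjusted p = 0.00279), from the same vehicle arrays.

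Il10ra, the ligand-binding chain of the interleukin 10 receptor of leukocytes, was at 5.68, 5.66 and 6.18 with vehicle and 5.96, 6.13 and 6.47 with trimebutine. Its difference of 0.35 had an interval from 0.15 to 0.54 and an unadjusted p of 0.0028, although the groups overlapped because replicate 3 was high in both. Scimp, an adaptor protein of antigen-presenting cells, also tracked the isolate: it was at 5.59, 6.53 and 7.74 with vehicle and 5.95, 6.80 and 8.03 with trimebutine, and its interval ran from −0.03 to 0.63. The macrophage and leukocyte list, in the same pairs, differed by −0.086, 0.116 and 0.020, and its part in these values was not tested. The other 5 genes were Dbil5, Icam5 (a neuronal adhesion molecule), Sntg1 (a syntrophin of neurons), Wfdc12 and an olfactory receptor, with differences from 0.25 to 0.37. Wfdc12 passed the limit on signal of 5.83 only through the trimebutine arrays, with a mean of 6.03. Its means were 5.78 with vehicle, 5.80 with alprostadil and 5.76 with the combination. Scnn1b and Gfap did not reach 0.2 in every pair but came next after Kera by unadjusted p in this direction. Scnn1b, a subunit of the epithelial sodium channel, was at 5.87, 5.76 and 6.09 with vehicle and 6.21, 6.40 and 6.27 with trimebutine, a difference of 0.39 (unadjusted p = 0.00117). Gfap, an intermediate filament of glia, was at 6.15, 6.09 and 6.21 and at 6.43, 6.23 and 6.52, a difference of 0.24 (unadjusted p = 0.00203). In both, the groups did not overlap. The other 9 tested members of the Schwann and neural list did not pass an unadjusted p of 0.05, and the list mean differed by 0.012, with an interval from −0.034 to 0.058.

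Ccl12, a chemokine that attracts monocytes, was the gene with the largest difference among the lower ones that the naming rule allowed in every pair. It was at 8.47, 8.30 and 8.46 with vehicle and 8.25, 7.78 and 7.96 with trimebutine, and no trimebutine array reached a vehicle array. The difference was −0.41 with a standard error of 0.10, a 95% interval from −0.64 to −0.18 and an unadjusted p of 0.00237. With alprostadil and with the combination, Ccl12 was lower than on the same vehicle arrays by far more: the differences were −1.62 (adjusted p = 6.47e-05) and −1.42 (adjusted p = 1.36e-06).

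The other 8 genes lower in every pair were Krt73 (a keratin of the hair follicle's inner root sheath), Spata1, Tada3lb, Rbmxl1b, Tcerg1l, Mir667, Doc2g and an olfactory receptor, Or6c33b. Spata1, a testis-associated gene, was at 6.39, 6.36 and 6.16 with vehicle and 6.08, 5.91 and 5.91 with trimebutine, a difference of −0.34 (unadjusted p = 0.00333). Krt73 differed by −0.30 (unadjusted p = 0.019), and its pair differences of −0.29, −0.30 and −0.31 were nearly equal. Tada3lb lay close to the limit on signal of 5.83, with means of 5.99 with vehicle and 5.72 with trimebutine. Its means were 5.85 with alprostadil and 5.79 with the combination, so it passed that limit only through the vehicle arrays. The choice of Tada3lb for testing was therefore not independent of its fall. Tada3lb and Rbmxl1b are named as copies of other genes, so that their probes may share signal with a relative, and the same caution holds for Adam4l1, Rpl29-ps14 and Tead4l1. The latter had 3 of the smallest p on the lower side without reaching 0.2 in every pair. Adam4l1 was at 6.82, 6.78 and 6.84 with vehicle and 6.58, 6.59 and 6.54 with trimebutine, a difference of −0.24 (unadjusted p = 0.000656) in groups that did not overlap.

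**Figure D3:**
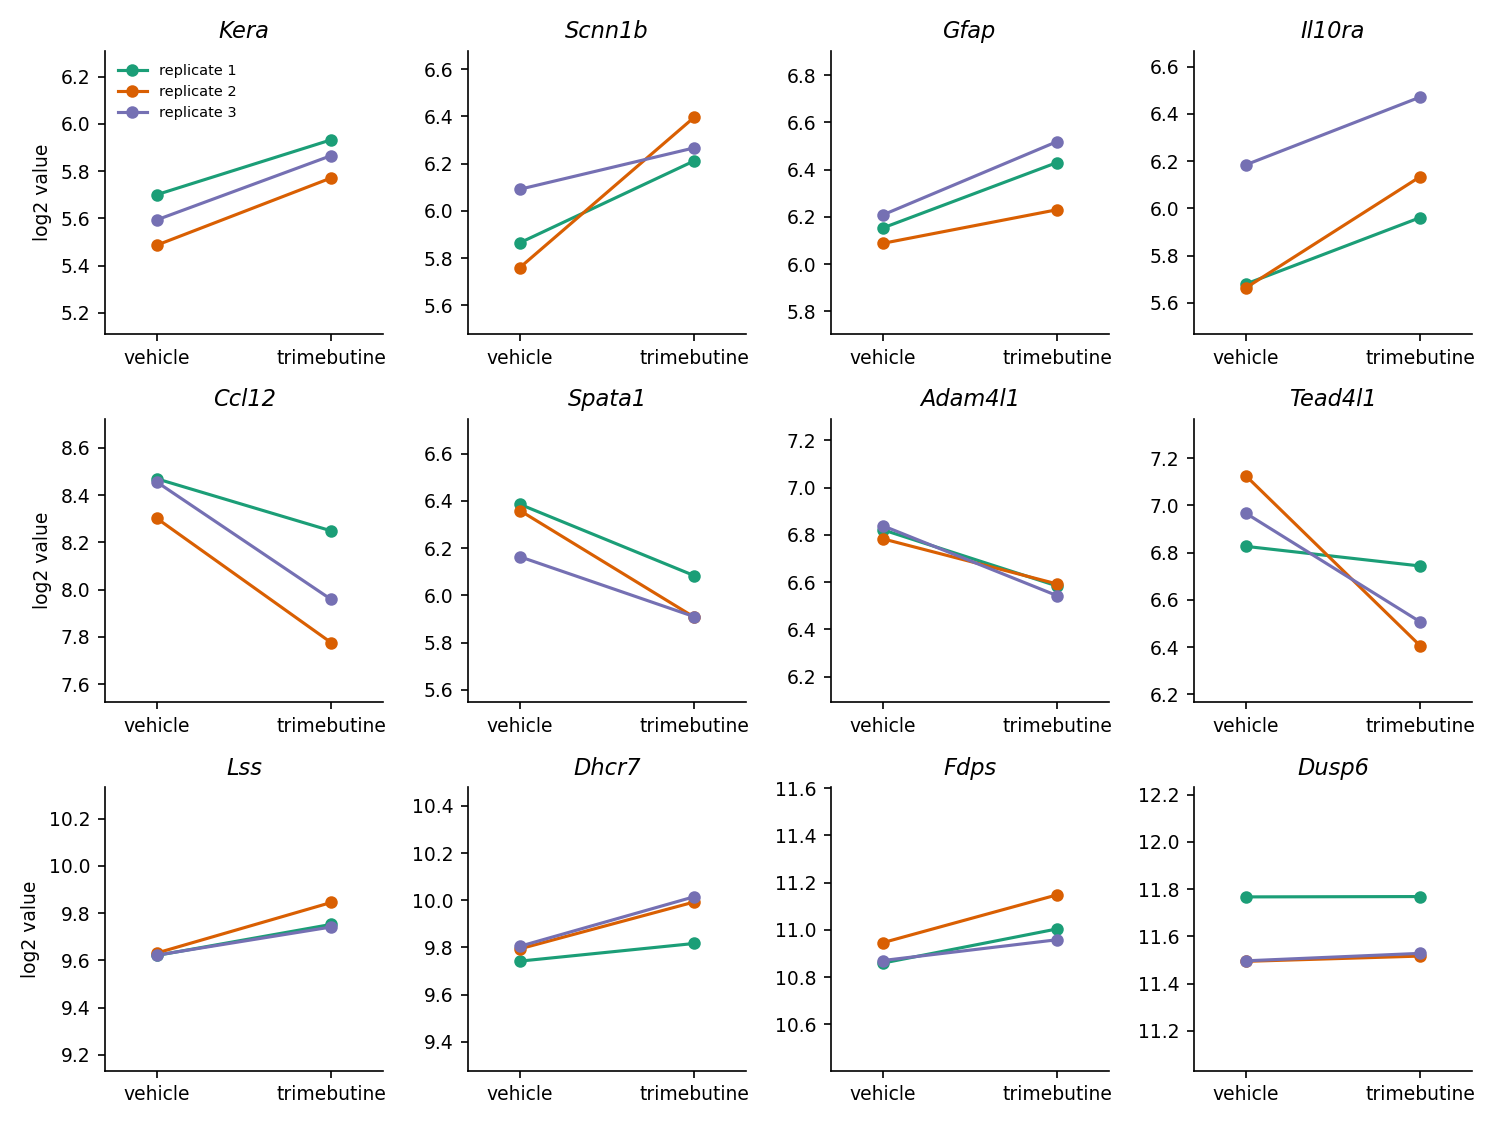
Log2 values of 12 genes in the 3 isolates, vehicle on the left and trimebutine on the right of each panel, with a line joining the arrays of a replicate. All panels span the same number of log2 units; the lines of Kera, Ccl12 and Lss run the same way in each isolate, and those of Dusp6, an ERK target, are nearly flat.

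Of the 33 gene lists, 27 had a bound on the mean under the median bound of single genes, and 6 had a wider one: DNA replication, mitosis, cytokines, and the macrophage, melanocyte and endothelial markers. The 95% interval of the list mean lay within 0.25 for 31 of the 33 lists, and the far end ran from 0.0433 for housekeeping genes to 0.304 for macrophage markers, with a median of 0.109. For 31 lists the interval included 0. The exceptions were the cholesterol synthesis and smooth muscle lists, and these 33 intervals were not adjusted for their number. The mean over all 13636 genes differed by 0.00, from −0.014 to 0.014. Pair means shared a sign for 15 of the 33 lists, while single genes did so in 25.1% of cases. Lists share members and were chosen with earlier results known, so this count is a description and no evidence of shifts in pathways.

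**Figure D4:**
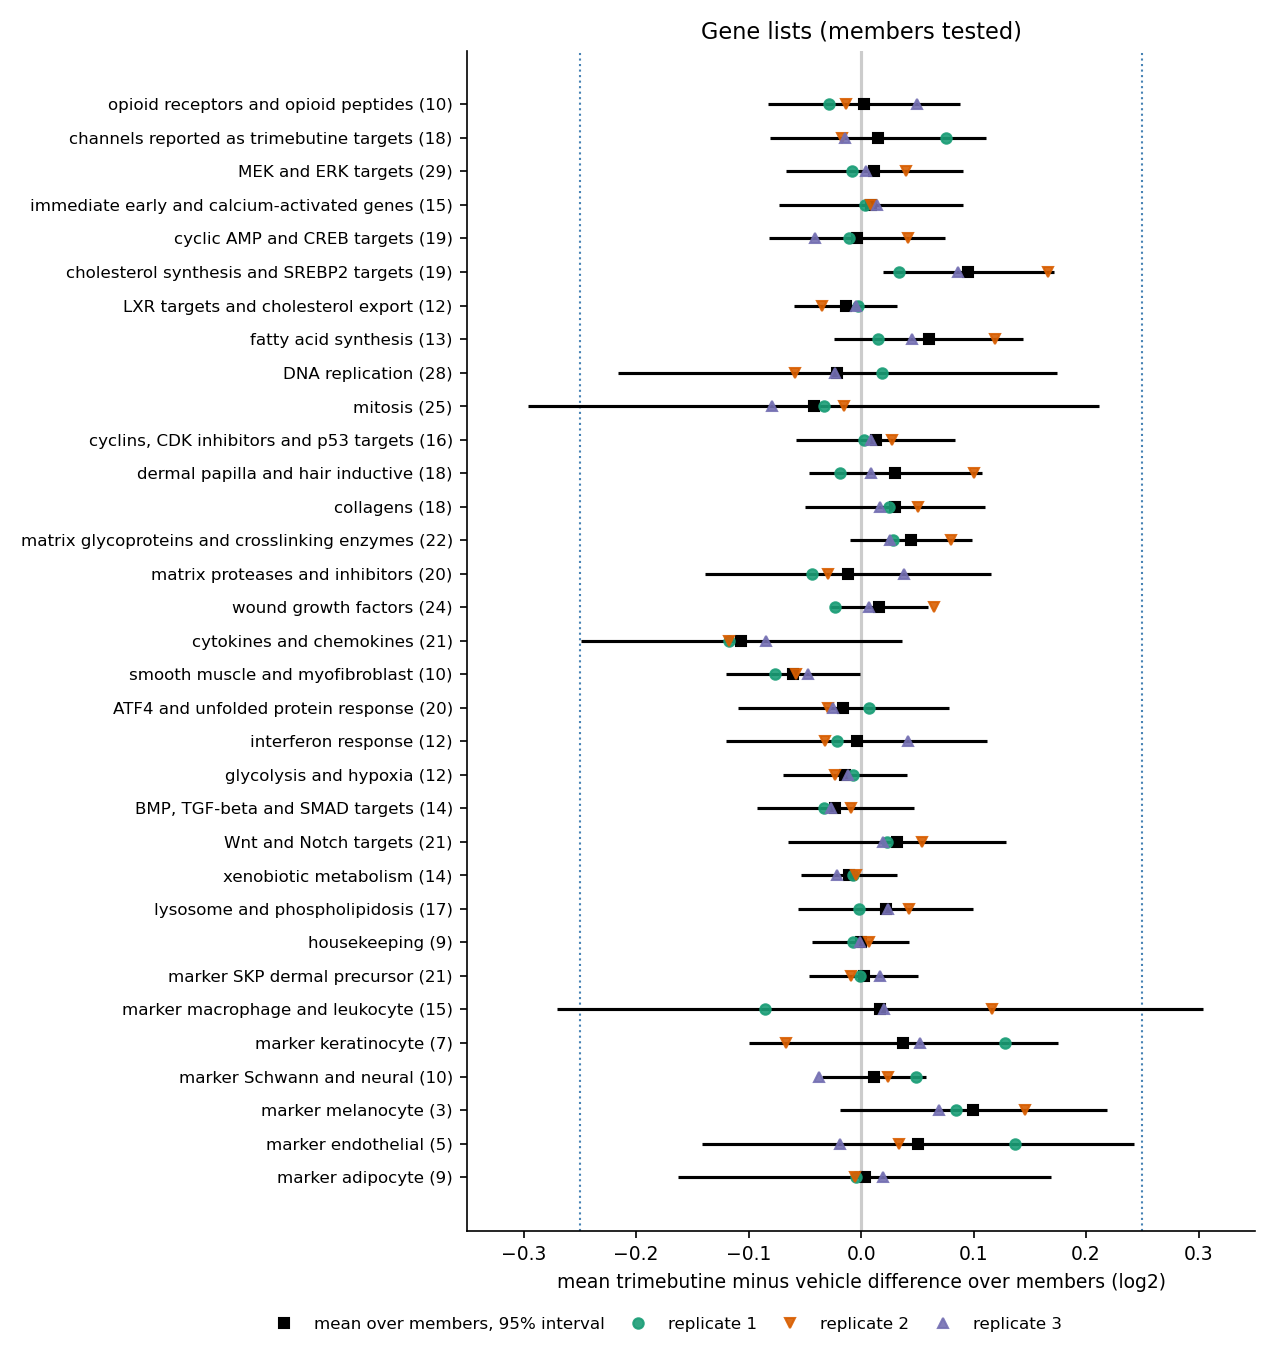
Mean difference over the tested members of 33 gene lists, log2 scale, with the 95% interval as a bar and the mean in each replicate pair as coloured symbols. Dotted lines stand at 0.25; the macrophage and mitosis lists reach past them, and the cholesterol list (0.095) and the smooth muscle list (−0.060) do not include 0.

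The drug's own receptors and channels came first among the lists. Of 12 listed opioid receptors, peptides and partners, 10 were tested, with 5 above 0 and 5 below. Their mean differed by 0.003, with a 95% interval from −0.082 to 0.088. A change over 0.5 was excluded for all 10 and a change over 0.25 for only 4, beside 99.5% and 77.7% of all genes. Of the receptors, Oprd1 (delta) was at 6.74, 6.76 and 7.04 with vehicle and 6.71, 6.58 and 6.90 with trimebutine, a difference of −0.12 from −0.28 to 0.04. Oprk1 (kappa) was at 5.87, 6.02 and 5.81 and at 5.71, 5.97 and 5.97, a difference of −0.02, and Oprl1, the nociceptin receptor, differed by 0.11; groups overlapped for all 3. The mu receptor gene Oprm1 and the dynorphin gene Pdyn were below the limit on signal and were not tested.

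Among the peptides, Penk, the proenkephalin gene, was at 11.15, 11.03 and 11.74 with vehicle and 11.05, 11.16 and 11.86 with trimebutine. Its difference of 0.05 had an interval from −0.27 to 0.37. On the same vehicle arrays, Penk was higher by 1.37 with alprostadil (adjusted p = 0.000907) and lower with the combination, at −1.25 (adjusted p = 4.47e-05). Pnoc, the precursor of nociceptin, was at 6.33, 6.44 and 6.37 with vehicle and 6.19, 6.16 and 6.18 with trimebutine. Every trimebutine array lay below every vehicle array, and the difference was −0.20, from −0.38 to −0.03, with an unadjusted p of 0.0243. The arrestins Arrb1 and Arrb2, which turn off and reroute receptor signals, differed by −0.00 and 0.16, and Pomc, Ogfr and Ogfrl1 by 0.10, −0.05 and 0.00.

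For the calcium, sodium and potassium channels listed as trimebutine targets, 18 of 33 were tested, and their mean differed by 0.015, from −0.081 to 0.111. No member had an unadjusted limma p under 0.05, beside 1.85% of all genes. All 18 had a change over 0.5 excluded, beside 99.5% of all genes. A change over 0.25 was excluded for only 9 of the 18, beside 77.7% of all genes. Cacna1c, the pore of the L-type calcium channel, was at 7.84, 7.90 and 7.88 with vehicle and 7.87, 7.96 and 7.82 with trimebutine. Cacna1h, a T-type channel, differed by 0.08, from −0.07 to 0.23. The largest difference was in Cacnb2, an auxiliary subunit, at −0.15 from −0.36 to 0.05.

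Targets of ERK differed little between the treatments. Of 30 listed, 29 were tested, and their mean differed by 0.012, with a 95% interval from −0.067 to 0.090 and pair means of −0.008, 0.040 and 0.005. None had an unadjusted limma p under 0.05, beside 1.85% of all genes, a share too low for a list of 29 to differ from it visibly. A change over 0.5 was excluded for all 29 and a change over 0.25 for 21, beside 99.5% and 77.7% of all genes. These counts do not set the list apart from other genes. Dusp6, the phosphatase that turns off ERK, was at 11.77, 11.49 and 11.50 with vehicle and 11.77, 11.52 and 11.53 with trimebutine. Egr1, an early growth response factor, was at 9.85, 9.01 and 9.04 and at 9.76, 9.05 and 9.10, so that isolate 1 was high under both treatments. Spry4, a feedback inhibitor of receptor tyrosine kinases, differed by 0.04, and its relative Spry1 by 0.11 (unadjusted p = 0.0743), the smallest p in the list. Trimebutine with trametinib gave a list median of −0.41 against the same vehicle arrays, beside 0.004 for trimebutine alone, 0.085 for alprostadil and −0.001 for all genes with trimebutine.

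Immediate early and calcium-activated genes, 15 of 17 listed, had a mean difference of 0.009, from −0.073 to 0.091. Nr4a1, a nuclear receptor induced within minutes of many signals, was at 6.53, 6.59 and 6.38 with vehicle and 6.62, 6.75 and 6.62 with trimebutine; its groups did not overlap, and its interval from −0.23 to 0.55 was the widest of the list. Targets of cyclic AMP and CREB, 19 of 20 listed, had a mean difference of −0.003, from −0.082 to 0.075, with no p under 0.05. Their list median was 0.014 for trimebutine and 0.21 for alprostadil, which acts through prostaglandin receptors that raise cyclic AMP.

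The cholesterol synthesis list had, in the fit to all 12 arrays with the replicate block, the largest mean difference relative to its error of the 33 lists. With the 6 arrays alone, the errors of the smooth muscle and cytokine means, given below, were smaller relative to their differences. Cells make cholesterol from acetyl-CoA by way of mevalonate and squalene, and the transcription factor SREBP2 (Srebf2) raises the enzymes of this path together when sterols run low. Of 25 listed genes, 19 were tested. All 19 had a difference above 0, beside 48.9% of all genes, and 14 were higher in all 3 pairs, beside 12.2% of all genes. The mean over the 19 genes lay from 9.97 to 10.03 on the vehicle arrays, and with trimebutine it reached 10.17 in replicate 2 and 10.12 in replicate 3. The pair differences of this mean were 0.034, 0.166 and 0.086, and the mean difference was 0.095 with a 95% interval from 0.019 to 0.171. Replicate 2 contributed most: without it the mean was 0.060, from −0.066 to 0.186. The interval also included 0 without replicate 3 (from −0.040 to 0.240), without the replicate block (from −0.036 to 0.227), with the 6 arrays alone (from −0.070 to 0.261) and with arrays centred on their medians (from −0.027 to 0.205).

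Single enzymes differed by little. Lss, lanosterol synthase, which closes the sterol rings, was at 9.62, 9.63 and 9.62 with vehicle and 9.75, 9.85 and 9.74 with trimebutine. The groups did not overlap, and the difference was 0.15, from 0.04 to 0.27, with an unadjusted p of 0.011. Dhcr7, the reductase of the last step, was at 9.74, 9.79 and 9.81 and at 9.82, 9.99 and 10.01, a difference of 0.16 (unadjusted p = 0.0132). Fdps, which makes farnesyl diphosphate, was at 10.86, 10.95 and 10.87 with vehicle and from 10.96 to 11.15 with trimebutine, a difference of 0.14 (unadjusted p = 0.0152). In both, every trimebutine array lay above every vehicle array. These were the 3 members with an unadjusted p under 0.05 in the higher direction. The other 16 ran from 0.02 for Pmvk, Fdft1 also at 0.02 and Cyp51 and Srebf2 at 0.05 to 0.13 for Insig1, the sterol-regulated retention protein of the SREBP pathway. Sqle and Idi1, enzymes of squalene oxidation and isoprenoid isomerisation, each differed by 0.10. A change over 0.5 was excluded for all 19, and a change over 0.25 for 16, beside 99.5% and 77.7% of all genes.

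Stretches of the promoters of these 3 genes are shown because these genes were higher together, from RefSeq on GRCr8, the 120 bases before each start site, with CCAAT or its reverse complement ATTGG in capitals.
Lss: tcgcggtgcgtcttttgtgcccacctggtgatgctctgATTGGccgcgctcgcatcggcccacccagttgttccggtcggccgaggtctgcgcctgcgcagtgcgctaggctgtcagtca
Fdps: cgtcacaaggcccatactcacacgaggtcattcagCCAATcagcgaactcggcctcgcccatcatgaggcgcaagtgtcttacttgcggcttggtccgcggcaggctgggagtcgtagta
Dhcr7: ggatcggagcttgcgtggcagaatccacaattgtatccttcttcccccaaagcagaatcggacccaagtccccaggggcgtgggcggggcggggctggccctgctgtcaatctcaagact
They lie at chr20:12118231-12118350 on the minus strand, chr2:176804817-176804936 on the minus strand and chr1:208444314-208444433 on the plus strand. CCAAT, the core of the site of the factor NF-Y, was searched on both strands in windows of 300 bases, 250 before and 50 from the start. It occurred in 12 of the 15 members with a window and in 39.6% of 27457 genes. Those are all genes with a window, whether tested on the array or not, so the 2 shares have unlike backgrounds. The members without it were Acat2, Cyp51 and Dhcr7, the last of the 3 genes shown. TCACNCCAC, the core of the sterol element that SREBP2 is known to bind, does not contain CCAAT and was in 0 of the 15 windows, on either strand, and in 1.25% of genes. A match is a description of these letters, not of binding.

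Neighbouring lipid lists differed by less. Fatty acid synthesis genes, 13 of 14 listed, had 12 differences above 0, beside 48.9% of all genes. Their mean was 0.060, from −0.024 to 0.144, with pair means of 0.015, 0.119 and 0.045. Acss2, which makes acetyl-CoA from acetate, led them with 0.11 (unadjusted p = 0.0522). LXR targets and cholesterol exporters, which respond to high sterols, had a mean of −0.014, from −0.059 to 0.032. Lysosome genes had a mean of 0.022, from −0.056 to 0.10. The median of the cholesterol list was −0.007 with alprostadil and 0.14 with the combination, beside 0.097 with trimebutine, all against the same vehicle arrays. For Dhcr7 the combination differed from vehicle by 0.86 (adjusted p = 4.53e-07) and alprostadil by −0.05.

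**Figure D5:**
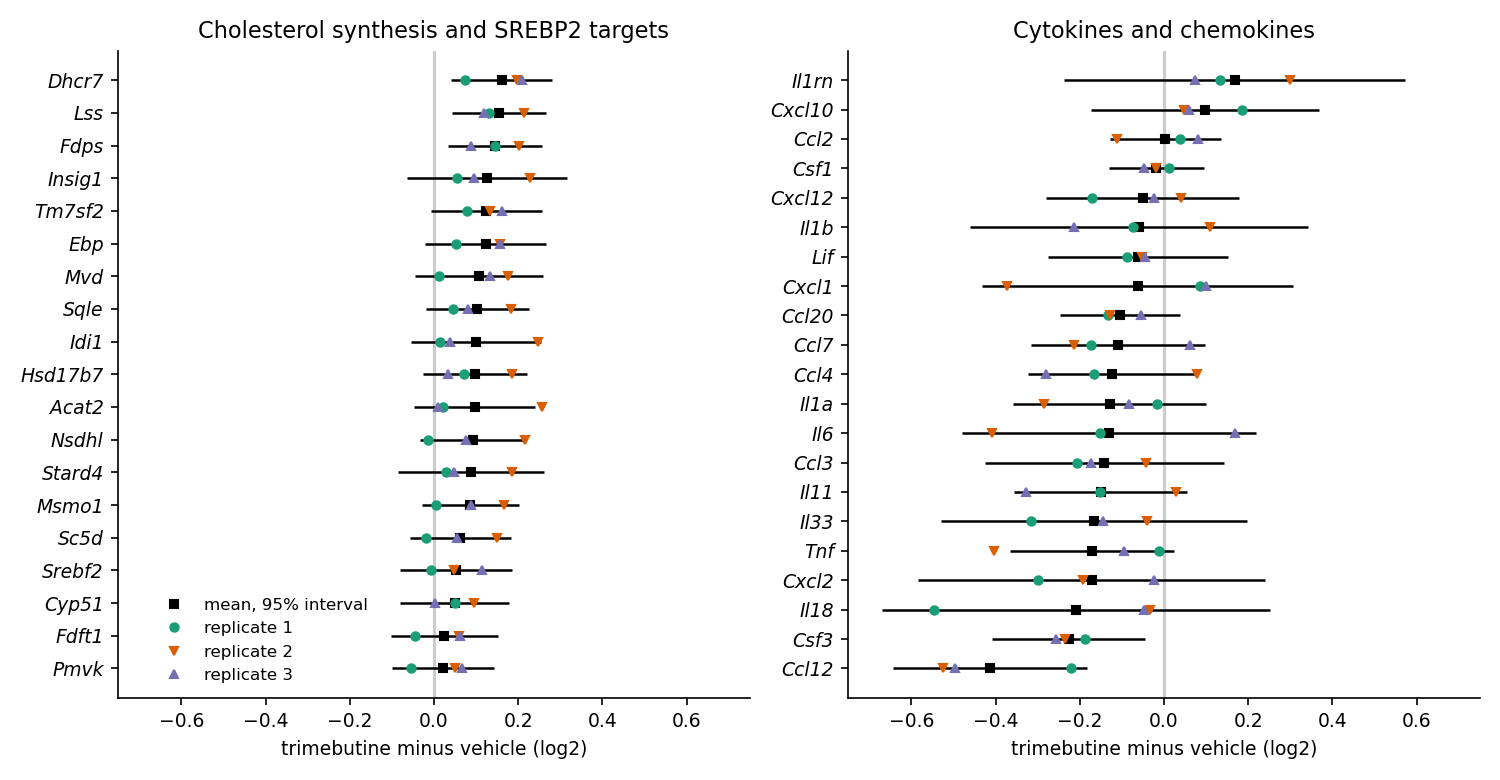
Difference of each tested member of the cholesterol list (left) and the cytokine and chemokine list (right), log2 scale, with its 95% interval as a bar and the 3 replicate pairs as coloured symbols. All 19 members on the left lie above 0 and 18 of 21 on the right below 0, and most bars include 0.

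Cytokines and chemokines leaned the other way with wider errors. Of 23 listed, 21 were tested, 18 had a difference below 0, beside 51.1% of all genes, and 10 were lower in all 3 pairs, beside 12.9%. Their mean differed by −0.106, with pair means of −0.117, −0.117 and −0.084, and its 95% interval ran from −0.249 to 0.036. From the 6 arrays alone the interval ran from −0.154 to −0.059, and without replicate 1 from −0.152 to −0.049. It included 0 and was wider without the replicate block (from −0.392 to 0.179), without replicate 2 (from −0.383 to 0.181) and without replicate 3 (from −0.387 to 0.152). A change over 0.25 was excluded for 3 members and a change over 0.5 for 18, beside 77.7% and 99.5% of all genes. Besides Ccl12, Csf3, the granulocyte colony-stimulating factor, had a p under 0.05: it was at 6.34, 6.40 and 6.19 with vehicle and 6.15, 6.16 and 5.93 with trimebutine, a difference of −0.23 (unadjusted p = 0.0191) in groups that did not overlap. Ccl2, another monocyte chemokine, differed by 0.00, from −0.13 to 0.13, and Il1rn, the interleukin 1 receptor antagonist, by 0.17. The macrophage and leukocyte markers in the same pairs were lower in replicate 1 and higher in replicates 2 and 3, as given above, and their part in the cytokine values was not tested.

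Cell cycle lists had some of the widest intervals. DNA replication genes, 28 of 29 listed, had a mean difference of −0.021, from −0.216 to 0.174, and 20 of 28 lay below 0. Mitosis genes, 25 of 28 listed, had a mean of −0.042, from −0.296 to 0.211, and 21 of 25 lay below 0. Over all genes 51.1% lay below 0. Lower in all 3 pairs were 7 DNA replication and 6 mitosis genes, beside 12.9% of all genes, while 3 and 0 were higher in all 3. Aurka, a spindle kinase, was at 8.17, 8.41 and 8.17 with vehicle and 7.95, 7.99 and 8.02 with trimebutine, a difference of −0.26 (unadjusted p = 0.038). Gins2, of the replicative helicase, differed by −0.20 (unadjusted p = 0.0215), with all pairs lower. The medians of both lists were −1.17 and −2.33 with the combination, against the same vehicle arrays. Cyclins, inhibitors of cyclin-dependent kinases and p53 targets had a mean of 0.013, from −0.058 to 0.083, and Ccnd1 and Cdkn1a differed by 0.01 and 0.07.

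Lists of the dermis and of repair had mean differences under 0.05 in size, while single members were bounded less evenly. Collagens, 18 of 19 listed, had a mean difference of 0.030, from −0.050 to 0.111. Of these, 15 lay above 0, beside 48.9% of all genes, and none had an unadjusted limma p under 0.05. Col1a2 and Col3a1, fibrillar collagens of the dermis, differed by 0.05 and 0.04, with bounds of 0.15. Matrix glycoproteins and crosslinking enzymes had a mean of 0.045, from −0.010 to 0.099, and Kera was the member with a p under 0.05. Matrix proteases and inhibitors had a mean of −0.012, from −0.139 to 0.115, where Mmp9 and Mmp13 were not bounded within 0.5. Wound growth factors, 24 of 26 listed, had a mean of 0.016, from −0.027 to 0.060. A change over 0.5 was excluded for 23 of the 24, beside 99.5% of all genes, and the exception was Igf1, with a bound of 0.645. Fgf2 had the largest difference of these, 0.15, with 7.24, 7.25 and 7.57 for vehicle and 7.39, 7.42 and 7.69 for trimebutine, and its interval ran from −0.01 to 0.31. Dermal papilla genes had a mean of 0.030, from −0.046 to 0.107, and a change over 0.25 was excluded for 10 of the 18, beside 77.7% of all genes; Nog, a BMP inhibitor, differed by −0.20 (unadjusted p = 0.0334), but not in the same direction in all pairs.

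Smooth muscle and myofibroblast genes, 10 of 13 listed, had a mean of −0.060, from −0.120 to −0.001. Of the 10, 9 lay below 0, beside 51.1% of all genes, and none had an unadjusted limma p under 0.05. Actg2, smooth muscle gamma actin, was at 6.76, 6.78 and 6.77 with vehicle and 6.30, 6.48 and 6.73 with trimebutine, a difference of −0.27 from −0.73 to 0.19, and it weighed most. The median over the 10 was −0.028. The interval of the mean included 0 without replicate 1 (from −0.165 to 0.061), without replicate 3 (from −0.182 to 0.048) and without the replicate block (from −0.158 to 0.037). It lay below 0 with the 6 arrays alone (from −0.098 to −0.022) and without replicate 2 (from −0.092 to −0.032).

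The remaining lists had intervals that included 0. They were the ATF4 and unfolded protein response (mean −0.016), interferon response (−0.004), glycolysis and hypoxia (−0.014), BMP and TGF-beta targets (−0.023), Wnt and Notch targets (0.032), xenobiotic metabolism (−0.011) and housekeeping genes (−0.00). Among markers of other cells, those of keratinocytes differed by 0.038, endothelial cells by 0.050, adipocytes by 0.003 and melanocytes by 0.10, the last over 3 tested markers of 8. Dct, an enzyme of melanin synthesis, was at 5.72, 5.54 and 5.87 with vehicle and 5.89, 5.84 and 5.98 with trimebutine. The difference was 0.20 (unadjusted p = 0.0138), close to the limit on signal. The vehicle mean of Dct lay under that limit, and every trimebutine value lay above it. The choice of Dct for testing, and its part in the melanocyte mean, were therefore not independent of its rise. Of the dermal precursor markers, Sox9 differed by −0.12 (unadjusted p = 0.0472), with no overlap of the groups.

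The other drug of the screen shows what the same design resolved. With alprostadil, 257 genes (1.88%) passed an adjusted p under 0.05 against vehicle, from the same vehicle arrays and the same number of arrays. For 255 of these 257 genes a trimebutine change over 0.5 was excluded, and for 188 a change over 0.25. Over all genes this held for 99.5% and 77.7%, so the genes called for alprostadil were not bounded more tightly than others. The genes among them with a trimebutine difference over 0.25 in size were Ccl12 (−0.41) and Kera (0.26). The direct test of alprostadil against trimebutine called 342 genes (2.51%), among which were 235 of the 257. Adding trametinib to trimebutine called 5723 genes (42%).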

How the data were processed

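RNA from 12 rat SKP cultures was measured on Affymetrix Rat Gene 2.0 ST arrays (1 colour). The files hold log2 values that the authors deposited; per the submitters' processing notes they used RMA and the oligo package, with versions and settings not given in the sources used here. RMA gives all arrays 1 distribution, and a change in total RNA per cell would not show. Of 36685 features, 18511 had 1 symbol, 575 several and 17599 none in the platform annotation. Of those with 1 symbol, 18394 features took the GRCr8 symbol of their Entrez identifier, whether or not it differed, and 117 kept the annotation symbol. The brightest feature of a symbol was used, and genes under the 25th percentile of the mean log2 value (5.83) were left out.

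Groups and replicate numbers came from the titles, and the design text names 3 independent isolates. The replicate number entered as a block because the question asked of this comparison set it so. Same-numbered arrays deviated together from their group means (18 pairs, r from 0.21 to 0.81), and 36 differently numbered pairs had r from −0.71 to 0.10. Deviations from a mean of 3 arrays sum to 0, which pushes the latter values down, so they are no separate support for the block. The fit used lmFit, contrasts.fit and eBayes of limma 3.58.1 in R 4.3.3 over 12 arrays (6 residual degrees of freedom), two-sided, with Benjamini-Hochberg adjustment over 13636 genes. Changes over 0.5, 0.25 and 1 were tested with a pair of one-sided moderated tests against those limits. List means were fitted with the same model without moderation and given no p. The steps were tested on simulated data. The number of arrays limits the precision, and p-values reflect only how cultures of these isolates varied.

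The members and lists were chosen with earlier results of these data known. Named genes were the 10 with the largest smallest pair difference per direction among those alike in all 3 pairs, the 5 smallest p per direction, the 5 widest intervals, up to 4 members per list by p, and all opioid and cholesterol members, skipping locus numbers and olfactory, vomeronasal and taste receptors in the first 3. Genes named beyond these were chosen after their values were seen. Alternatives were no block, 6 arrays alone, other signal limits, mean features, centred arrays, another prior, other pair minimums and leaving out each replicate.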

Additional observations from a re-analysis of the deposited data

How the results depend on the processing

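No gene passed an adjusted p under 0.05 with limma in any alternative, with 90 to 732 genes at an unadjusted p under 0.05, and the smallest adjusted p was 0.323, with no limit on signal. The number of genes bounded within 0.5 stayed within 1.5 times of 13563, from 9082 of 9100 with the limit at the 50th percentile to 17343 of 18166 with none, and was 13152 with no replicate block. The median half-width ran from 0.123 with 6 arrays alone to 0.220 without replicate 2, and was 0.190 with no replicate block. The count of 17 genes alike in all pairs depended on its limits: it was 118 with no limit on signal, 3 with the limit at the 50th percentile, 239 with each pair at least 0.1 and 1 with each pair at least 0.3, and 105 to 138 when a replicate was left out and 2 pairs remained. The mean of the cholesterol list kept its sign, but its interval included 0 with no replicate block (0.095), with 6 arrays alone (0.095), with arrays centred on the median (0.089) and without replicate 2 or 3. It ran from 0.060 to 0.126 when a replicate was left out. The ERK target mean ran from −0.002 to 0.022 likewise, and its interval included 0 each time. Of 176 named genes, 23 took the other sign under at least 1 alternative, all 23 when a replicate was left out, and each of these had a main interval that included 0. Without replicate 2, Igf1 went from 0.08 to −0.13, Clec2d2 from 0.11 to −0.09 and Mmp13 from −0.01 to 0.02. With 3 arrays a group, no array was tested for standing apart, and small changes in genes of low signal are the least bounded.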
